A study of Mus musculus with 9 samples.

Results

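Genes of antigen presentation by MHC class I molecules were followed in mouse blood RNA, and all 10 of them, chosen by symbol, had a row among the 20926 genes of the table. They were the class I heavy chains H2-K1 and H2-D1 and their light chain B2m, the peptide transporter subunits Tap1 and Tap2, the loading factor Tapbp (tapasin), the immunoproteasome subunits Psmb8, Psmb9 and Psmb10, and the transcriptional coactivator Nlrc5. Blood came from male DBA/1 mice, 7 weeks old at the start of the study, in 3 groups with 3 libraries each. Ctrl mice had no arthritis, and whether they were given adjuvant or a sham injection is not given in the sources used here. In CIA mice arthritis was induced by immunisation with chick type II collagen in Freund's adjuvant, followed by a booster, which models rheumatoid arthritis. In the CIA+THz group the swollen ankles of such arthritic mice were exposed to 0.1 THz radiation on 14 days, 30 min each day. The irradiated mice were under isoflurane during the exposure, and whether the other groups were anesthetised is not given in the sources used here, so irradiation and anesthesia cannot be told apart. Each library was taken to be a different mouse from its numbered label, which does not say whether blood was pooled.

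Class I molecules show peptides from inside the cell to CD8 T cells and are also read by inhibitory receptors of NK cells. In the immunoproteasome Psmb8, Psmb9 and Psmb10, which interferon can induce, replace the catalytic subunits Psmb5, Psmb6 and Psmb7 of the constitutive proteasome. The Tap1 and Tap2 heterodimer pumps the peptides into the endoplasmic reticulum, and tapasin bridges the transporter to the heavy chain and B2m. Nlrc5 drives transcription of many of these genes without binding DNA itself. Leukocytes of the blood carry class I at the surface at high levels, while mature red cells of the mouse have no nucleus and no transcription.

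The upstream DNA of the heavy chains, B2m and Tap1 is shown because elements through which the family is known to be switched on together were searched for there. RefSeq windows (GRCm38.p6) were found for 8 of the 10 members, and Tap2 and Nlrc5 were not among them. Each line gives the 250 bases before the start of transcription on the strand of the gene, with matches to the searched motifs in capitals. H2-K1 is chr17:34000348-34000597 on the minus strand (the upstream of the 2 RefSeq starts of the gene), H2-D1 is chr17:35262844-35263093 on the plus strand, B2m is chr2:122147437-122147686 on the plus strand and Tap1 is chr17:34187306-34187555 on the plus strand.
H2-K1: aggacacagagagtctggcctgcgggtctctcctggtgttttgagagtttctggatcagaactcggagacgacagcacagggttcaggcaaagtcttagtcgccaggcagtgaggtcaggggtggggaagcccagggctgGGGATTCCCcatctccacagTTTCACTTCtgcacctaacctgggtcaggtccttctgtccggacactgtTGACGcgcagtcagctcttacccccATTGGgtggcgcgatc
H2-D1: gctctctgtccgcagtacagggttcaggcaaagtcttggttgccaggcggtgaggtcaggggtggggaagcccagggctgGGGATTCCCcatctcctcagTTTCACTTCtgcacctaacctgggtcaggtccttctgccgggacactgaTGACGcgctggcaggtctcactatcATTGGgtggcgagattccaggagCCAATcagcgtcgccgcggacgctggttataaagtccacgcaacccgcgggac
B2m: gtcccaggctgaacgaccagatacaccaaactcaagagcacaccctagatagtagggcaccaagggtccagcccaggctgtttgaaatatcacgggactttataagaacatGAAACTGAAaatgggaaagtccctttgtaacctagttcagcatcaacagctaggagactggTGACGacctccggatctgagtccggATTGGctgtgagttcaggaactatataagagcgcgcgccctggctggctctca
Tap1: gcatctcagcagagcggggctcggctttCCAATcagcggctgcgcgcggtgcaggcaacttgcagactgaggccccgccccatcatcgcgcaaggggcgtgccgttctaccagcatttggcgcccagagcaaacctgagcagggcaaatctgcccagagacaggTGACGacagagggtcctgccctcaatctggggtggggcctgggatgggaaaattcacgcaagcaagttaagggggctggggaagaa
The 5 motifs were searched on both strands. GGGATTCCC, the core of the NF-kB element known from class I enhancers, was found upstream of H2-K1 and H2-D1, and in 0.301% of the 32851 upstream windows of all genes. GAANNGAAA, an interferon response element with the spacing of the heavy chain genes, was found in the same pair of genes and in 6.31% of all windows. GAAANNGAA, the commoner spacing of that element, was found upstream of B2m and in 7.13% of all windows. TGACG, the core of the X2 element to which the Nlrc5 complex is recruited, was found upstream of all 4 genes shown and of Psmb9, against 17.8% of all windows. CCAAT, the core of the Y element, was found in the same 5 genes and upstream of Tapbp, against 33.8% of all windows. Tap1 had no match to GGGATTCCC or to either spacing of the interferon element. Its CCAAT (from 222 bases before the start) came before its TGACG (from 86 bases), the reverse of the order in H2-K1, H2-D1 and B2m. Tap1 and Psmb9 are transcribed in opposite directions from nearly the same stretch, so their matches to TGACG and CCAAT are the same letters. No match overlapped another in the 4 windows shown, and none of the 5 motifs was found in the windows of Psmb8 or Psmb10. The windows of H2-D1, Psmb9, Psmb8 and Tapbp lie inside the GENCODE gene models, before a later start than the outermost one. The Psmb8 window begins at 34197945 and the gene at 34197721, and for Tapbp these are 33919228 and 33915899. The DNA before those outermost starts was not searched. A match is a description of letters and says nothing about binding in these mice, whose DBA/1 strain carries other class I alleles than the C57BL/6 reference.

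In the GENCODE annotation of GRCm38, 7 of the 10 members lie on chromosome 17. Psmb9, Tap1, Psmb8 and Tap2 fill 34.3 kb of it (34181987 to 34216321), while H2-K1 and H2-D1 lie on either side of that cluster, 1262 kb apart. Psmb10 and Nlrc5 are on chromosome 8, and B2m is on chromosome 2. The gene models of Psmb9 (34181987 to 34187764, minus strand) and Tap1 (34187553 to 34197225, plus strand) overlap by 212 bp. Strand was not stated for the counting, so reads in that overlap cannot be assigned to either gene. Of the 50-base words in the transcripts, 9.63% of those of H2-K1 and 12.8% of those of H2-D1 also occur in transcripts of other genes, among them each other and other class I genes. The share was 23.2% for Tapbp, 11.9% for Psmb8, 11.6% for Tap2 and 4.19% for Psmb9, and the levels of these genes and of the heavy chains are less certain than those of B2m and Psmb10, which shared none.

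The table holds FPKM, fragments scaled by the length of the transcript and the total of the library. It carries no counts, so the depth of the libraries is unknown and no counting interval was computed. Between 11801 and 12264 genes were above 0 in the Ctrl and CIA libraries and between 12449 and 12807 in the CIA+THz libraries. Although the labels name leukocytes, Alas2, the enzyme of heme synthesis in red cell precursors, made up 11.4% to 16.7% of the summed FPKM as deposited. On the rescaled values described below, the 6 erythroid markers summed to between 69950 and 104909 in Ctrl libraries, 88220 and 99058 in CIA libraries and 48033 and 66255 in the irradiated ones. Alas2 makes up most of these sums, and the other markers add little to them. By gene, 5 of the 6 were lower and 1 higher in CIA against Ctrl (median log2 difference -0.56). In CIA+THz against CIA 4 were lower and 2 higher (median -0.05), with 0 of 6 at an unadjusted p under 0.05 by limma, beside 13.2% of all genes. The pan-leukocyte markers (Ptprc, Cd53, Coro1a, Laptm5 and Arhgdib) were all present. To set the libraries on 1 scale, a median-of-ratios factor (0.837 to 1.22) was divided out of each, and levels below are rescaled FPKM. Differences are on the scale of log2(rescaled FPKM + 0.1). In blood, fewer cells of a type and less RNA per cell cannot be told apart.

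All 10 members were well above the minimum of the test, a mean of 0.1. In Ctrl blood the heavy chain H2-D1 had the highest level, 2060 ± 66.5 (SD, n = 3), and ranked at position 33 of all genes. B2m followed at 958 ± 148 and H2-K1 at 321 ± 34.1. Then came Psmb8 at 66.7 ± 4.42, Tapbp at 53.9 ± 3.96 and Psmb10 at 40.3 ± 3.40. Tap1 at 33.7 ± 2.91 and Tap2 at 33.5 ± 2.02, the partners of the transporter, were the only neighbours in this order whose Ctrl libraries overlapped. Psmb9 was lower at 23.96 ± 0.131 and Nlrc5 lowest at 12.2 ± 2.59. FPKM is a level per length, so the order can be read across genes, within the limit of shared sequence given above. For H2-K1 and H2-D1 the level also depends on how reads of the strain's own alleles aligned to the reference. That was not tested, so the place of the heavy chains in the order is less certain. The plot of levels by library shows each member on its own axis from 0.

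**Figure D1:**
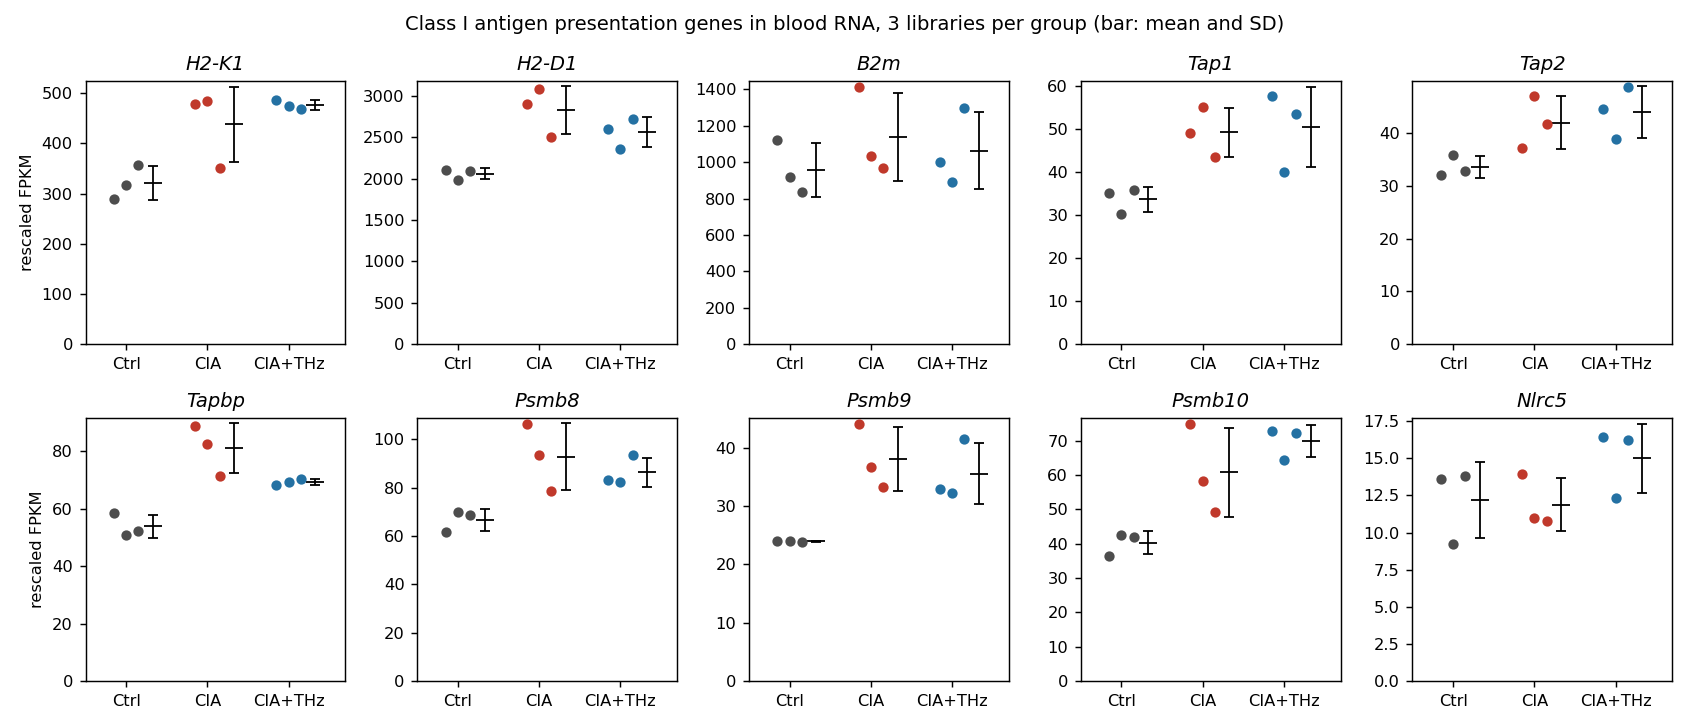
Rescaled FPKM (vertical axis, from 0) of the 10 members in each of 9 libraries (points, 3 per group) with the mean and SD of each group (black). For H2-D1, Tap1, Tap2, Tapbp, Psmb8, Psmb9 and Psmb10 all points of both arthritic groups are above all Ctrl points. B2m and Nlrc5 overlap Ctrl in both arthritic groups, and H2-K1 overlaps it in CIA alone.

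When all 3 groups were compared by the moderated F-test of limma, 8 of the 10 members reached an unadjusted p under 0.05, against 21.2% of the 12382 genes tested. Tapbp (adjusted p = 0.0467) and Psmb10 (adjusted p = 0.0414) also had a Benjamini-Hochberg adjusted p under 0.05 by limma, against 2.56% of all genes. B2m (unadjusted p = 0.495 by limma) and Nlrc5 (unadjusted p = 0.223 by limma) did not pass. Psmb9 was close to the adjusted threshold (adjusted p = 0.0529 by limma).

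The first comparison, CIA against Ctrl, asks how class I genes in the blood differ in immunised mice with arthritis. Arthritis and the immunisation with adjuvant cannot be told apart in it. Heavy chains, transporter, tapasin and all 3 immunoproteasome subunits were higher in CIA, by 1.25-fold (Tap2) to 1.59-fold (Psmb9) in mean level. These 8 members had an unadjusted p under 0.05, and B2m and Nlrc5 did not. That threshold, without a fold limit, was added after seeing the data. In limma, 8 of the 10 members had an unadjusted p under 0.05, all of them higher, against 8.84% of all genes tested. For 7 members every CIA library was above every Ctrl library, against 11.7% of all genes. The study's criterion for a pair of groups, which asks for an unadjusted p under 0.05 together with a log2 fold change beyond 0.67 in size, was passed by 0 of 10, against 4.78% of all genes in the higher direction. After adjustment 0 of 10 were under 0.05, with the lowest adjusted p, 0.0866 by limma, for Psmb9. The median log2 difference of the 10 members was 0.46, beside -0.005 for all genes.

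Among the class I chains, H2-D1 was 2109, 1984 and 2087 in the Ctrl libraries and 2899, 3083 and 2507 in the CIA libraries. The groups did not overlap, and the log2 difference was 0.45 ± 0.18 (SE, unadjusted p = 0.0373 by limma). H2-K1, the other heavy chain, was 289, 317 and 357 in Ctrl and 479, 484 and 351 in CIA. The CIA 3 library lay inside the Ctrl range, and the log2 difference was 0.44 ± 0.17 (unadjusted p = 0.0328 by limma). B2m, the invariant light chain, was 1122, 918 and 835 in Ctrl and 1415, 1032 and 969 in CIA, with overlapping groups. Its log2 difference of 0.24 had a 95% interval of -0.24 to 0.72, which holds both 0 and the differences of the heavy chains. Without CIA 1 the difference was 0.073.

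Tap1, the transporter subunit encoded next to Psmb9, was 35.0, 30.3 and 35.7 in Ctrl and 49.1, 55.0 and 43.5 in CIA. All CIA libraries were above the Ctrl ones, and the log2 difference was 0.54 ± 0.13 (SE, unadjusted p = 0.00433 by limma). Tap2, its partner, had a smaller log2 difference of 0.32 ± 0.13 (unadjusted p = 0.0402 by limma), from 33.5 ± 2.02 to 41.9 ± 4.95 (SD, n = 3). Tapbp was 58.4, 50.9 and 52.4 in Ctrl and 88.8, 82.6 and 71.6 in CIA. All CIA libraries of tapasin were above the Ctrl ones, with a log2 difference of 0.58 ± 0.12 (unadjusted p = 0.00194 by limma).

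Psmb9, the inducible subunit that takes the place of Psmb6, was nearly the same in the Ctrl libraries at 24.06, 23.997 and 23.81, and was 44.2, 36.7 and 33.4 in CIA. Its log2 difference of 0.66 ± 0.13 (SE, unadjusted p = 0.00160 by limma) was the largest of the 10 and just under the 0.67 of the criterion. Psmb10 was 36.4, 42.4 and 42.1 in Ctrl and 74.8, 58.3 and 49.3 in CIA. The CIA libraries differed among themselves by 1.52-fold, and the log2 difference was 0.57 ± 0.17 (unadjusted p = 0.0112 by limma). Psmb8 was 61.6, 69.8 and 68.6 in Ctrl and 106, 93.5 and 78.6 in CIA, a log2 difference of 0.47 ± 0.14 (unadjusted p = 0.0110 by limma). For all 3 subunits the CIA 3 library was the lowest of its group. Nlrc5, the coactivator of the family, was 13.6, 9.21 and 13.8 in Ctrl and 13.9, 10.95 and 10.8 in CIA. Its groups overlapped, with a log2 difference of -0.02 and a 95% interval of -0.52 to 0.47.

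The count of 8 members was sensitive to single libraries: it was 5 without Ctrl 1 and 5 without CIA 2, and 6 or 7 without any other library. The members that lost an unadjusted p under 0.05 in these fits were H2-K1, H2-D1 and Tap2. Scaling to the 5 pan-leukocyte markers, in place of all genes, also left 5 members (Tap1, Tapbp, Psmb8, Psmb9 and Psmb10).

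Markers of several blood cell types also differed between these groups. At an unadjusted p under 0.05, 1095 of all 12382 genes tested were higher and 1054 lower in CIA against Ctrl. The 8 monocyte markers summed to between 302 and 340 in Ctrl libraries, 512 and 621 in CIA libraries and 432 and 488 in irradiated ones, and 7 of 8 had an unadjusted p under 0.05, all higher, in CIA against Ctrl. The 7 NK cell markers summed to between 144 and 186 in Ctrl libraries, 50.9 and 116 in CIA libraries and 94.1 and 148 in irradiated ones, and 4 of 7 were lower in CIA at that threshold. The 7 T cell markers with a row, of 9 listed, summed to between 276 and 304 in Ctrl libraries, 198 and 222 in CIA libraries and 265 and 355 in irradiated ones, and 3 of 7 were lower in CIA. The 8 B cell markers summed to between 468 and 577 in Ctrl libraries, 501 and 656 in CIA libraries and 588 and 807 in irradiated ones. In CIA against Ctrl 1 of them was higher and 1 lower at that threshold. In CIA+THz against Ctrl 5 of 8 were higher, beside 8.39% of all genes in that direction. The 6 plasma cell markers summed to between 110 and 134 in Ctrl libraries, 51.1 and 59.7 in CIA libraries and 46.9 and 52.4 in irradiated ones, with 4 lower and 1 higher in CIA against Ctrl. Of the 9 neutrophil markers, 3 were higher and 2 lower from Ctrl to CIA, and 8 were lower from CIA to CIA+THz. In the latter comparison 908 of all 12382 genes were lower at that threshold. No marker in these lists was at 0 in all libraries. Their part in the class I result was not tested.

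The comparison of CIA+THz with CIA asks what irradiation of the arthritic mice went with, and here 0 of the 10 members passed the test. Of the 10, 5 were higher and 5 lower on the scale used here, from -0.22 for Tapbp to 0.33 for Nlrc5, with a median log2 difference of -0.04 beside 0.03 for all genes. In limma, 0 of 10 had an unadjusted p under 0.05, against 13.2% of all genes in either direction, and 0 of 10 passed the criterion, against 4.54%. The number of all genes with an adjusted p under 0.05 was also 0 by limma in this comparison, with 1638 at an unadjusted p under 0.05. The directions depended on the scaling, since with FPKM as deposited the median of all genes moved to 0.29 and all 10 members were higher in CIA+THz, with a median of 0.24.

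Tapbp was the single member whose libraries did not overlap, against 10.2% of all genes in which all libraries were lower. It was 68.2, 69.3 and 70.3 in CIA+THz, below the 71.6 of the lowest CIA library, and its 95% interval ran from -0.46 to 0.02 (unadjusted p = 0.0677 by limma). Without CIA 3 the log2 difference was -0.31 (unadjusted p = 0.0125 by limma), and with FPKM as deposited it was 0.06. Nlrc5 was 16.5, 12.3 and 16.2 in CIA+THz, and its interval ran from -0.07 to 0.74 (unadjusted p = 0.0908 by limma). Without CIA 1 its unadjusted p was 0.0381 by limma, and without CIA+THz 2 it was 0.0312 by limma. Psmb10 was 72.9, 64.4 and 72.3 in CIA+THz, with an interval of -0.16 to 0.60. Its log2 difference of 0.22 was 0.38 without CIA 1 (unadjusted p = 0.0189 by limma) and 0.078 without CIA 3 (unadjusted p = 0.592 by limma). The intervals of the other members reached no further than -0.58 to 0.47, on the rescaled values. With FPKM as deposited H2-K1 was higher by 0.41 (unadjusted p = 0.0203 by limma).

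**Figure D2:**
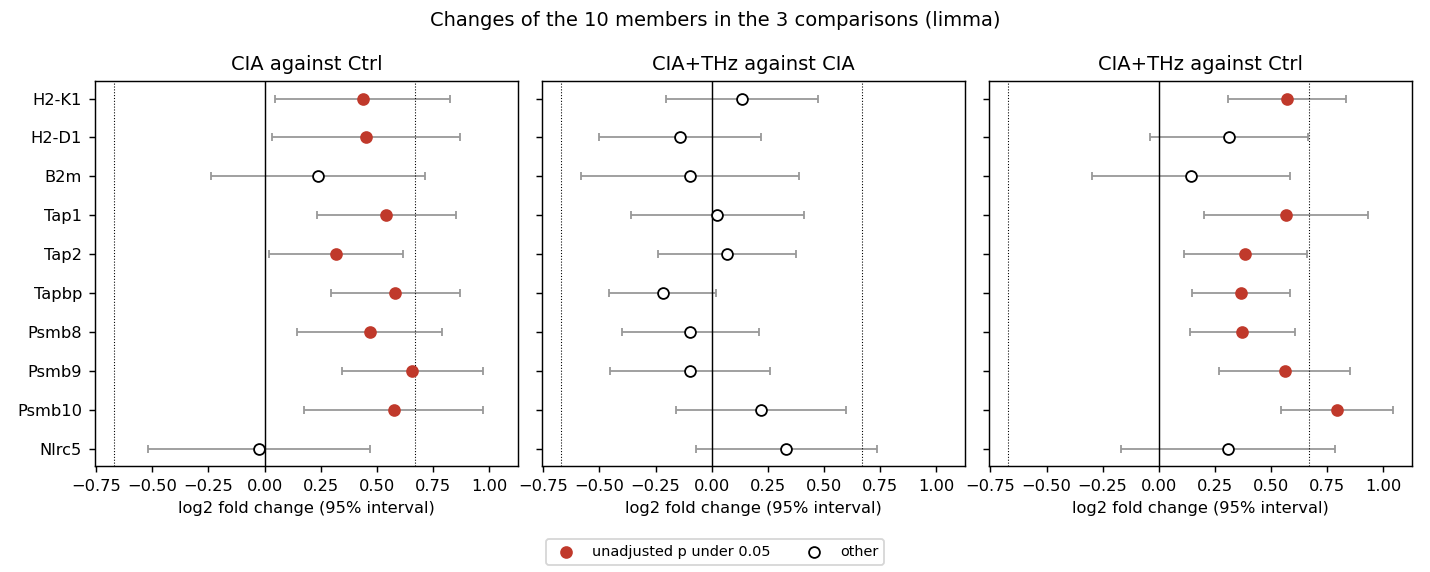
Log2 fold change of each member (horizontal axis) with its 95% interval in the 3 comparisons, filled where the unadjusted p was under 0.05, with dotted lines at 0.67 and -0.67. Filled points number 8 for CIA against Ctrl (left), 0 for CIA+THz against CIA (middle) and 7 for CIA+THz against Ctrl (right), where Psmb10 alone is past the dotted line.

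CIA+THz against Ctrl, which shares its libraries with the other comparisons, gave the levels that irradiated arthritic mice had relative to healthy ones. All 10 members were higher, with log2 differences from 0.14 (B2m) to 0.79 (Psmb10) and a median of 0.38, beside 0.04 for all genes. In limma 7 of 10 had an unadjusted p under 0.05, against 8.39% of all genes in the higher direction, and this count was 7 whichever library was left out. For 8 members every CIA+THz library was above every Ctrl library, against 11.9% of all genes. Psmb10 passed the criterion, as 1 of 10, against 4.64% of all genes in the higher direction. The genes past it in either direction numbered 972, and 1483 without Ctrl 3. Its log2 difference was 0.79 ± 0.11 (SE, unadjusted p = 0.000119, adjusted p = 0.0598 by limma). Without CIA+THz 2, the lowest irradiated library for 8 of the 10 members, Tap1 passed too, at 0.72.

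H2-K1 was 487, 474 and 468 in CIA+THz, with an SD of 9.55 beside 75.0 in CIA. In this comparison its groups did not overlap, and the log2 difference was 0.57 ± 0.11 (SE, unadjusted p = 0.00122 by limma). H2-D1 was 2605, 2361 and 2722 in CIA+THz, above all Ctrl libraries, with a log2 difference of 0.31 (unadjusted p = 0.0733 by limma). The log2 differences of Tap1 (57.7, 40.02 and 53.6 in CIA+THz) and Psmb9 (33.03, 32.2 and 41.6) were 0.57 ± 0.16 and 0.56 ± 0.12. Those of Tapbp, Psmb8 and Tap2 were between 0.36 and 0.39. B2m was 998, 891 and 1299 in CIA+THz and overlapped Ctrl.

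Each inducible subunit was also set against the constitutive subunit that it replaces, as a ratio within a library, which no scaling of libraries can change. Psmb5, Psmb6 and Psmb7 themselves had an unadjusted p under 0.05 in 0 of the 3 comparisons by limma. Of the 50-base words of Psmb5, 54.1% also occur in other transcripts, its pseudogene among them, so the level of Psmb5 is uncertain. The ratio Psmb8/Psmb5 was 2.47 ± 0.262 (SD, n = 3) in Ctrl libraries, 2.99 ± 0.422 in CIA libraries and 3.36 ± 0.256 in CIA+THz libraries. Psmb9/Psmb6 was 1.61, 1.11 and 1.38 in the Ctrl libraries, 2.37, 1.82 and 2.05 in CIA and 1.80, 1.83 and 2.95 in CIA+THz. All arthritic libraries were thus above the Ctrl ones. Psmb10/Psmb7 was 0.908, 1.20 and 1.35 in Ctrl libraries, 1.53, 1.65 and 1.30 in CIA libraries and 1.78, 1.97 and 1.56 in CIA+THz. The exact permutation test over the 1680 arrangements of 9 libraries gave p = 0.0536, p = 0.0571 and p = 0.0214 for the 3 ratios in this order, and an adjusted p of 0.0571 for each over the 3. Between CIA+THz and Ctrl the libraries did not overlap in any of the 3 ratios (exact two-sided permutation p = 0.1 for each, the smallest that 3 against 3 can give). Between CIA and Ctrl they did not overlap for Psmb9/Psmb6 alone.

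**Figure D3:**
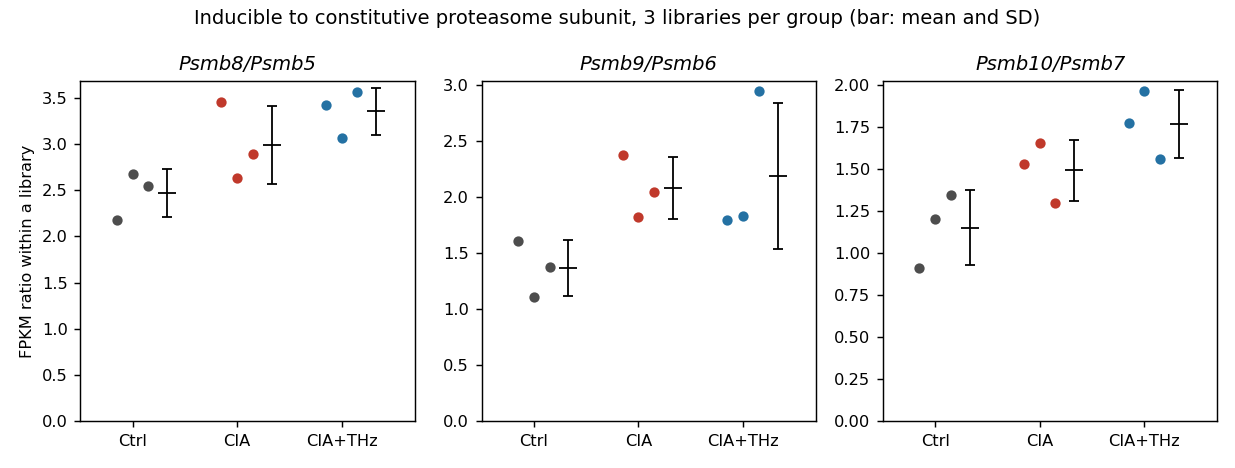
Ratio of FPKM of each inducible subunit to its constitutive counterpart (vertical axis, from 0) in each library (points) with the group mean and SD (black). All CIA+THz points are above all Ctrl points in the 3 panels, and the CIA points of Psmb8/Psmb5 and Psmb10/Psmb7 overlap Ctrl.

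The rest of the pathway was read from lists of its other genes. Of 7 other genes of peptide loading and trimming, 2 were higher and 2 lower in CIA against Ctrl at an unadjusted p under 0.05, and the median log2 difference was -0.07. Of all 12382 genes tested, 1095 were higher and 1054 lower at that threshold. The tapasin relative Tapbpl passed the criterion at 0.67 in CIA and at 0.72 in CIA+THz against Ctrl, against 9.05% and 7.85% of all genes in either direction in these comparisons. Its level was 3.595 ± 0.626 (SD, n = 3) in Ctrl libraries, 5.75 ± 0.503 in CIA libraries and 5.92 ± 0.396 in CIA+THz libraries. Of the 14 subunits of the constitutive 20S core, 13 were higher in CIA than in Ctrl, with a median of 0.21. At an unadjusted p under 0.05, 4 of them were higher, beside 8.84% of all genes in that direction.

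Of 20 other class I genes listed, 17 were tested, with a median log2 difference of 0.02 in CIA against Ctrl. Mr1, which presents vitamin metabolites to invariant T cells, passed the criterion with a lower level in CIA. It was 1 of 17, against 9.05% of all genes in either direction. Mr1 was at 16.98 ± 0.704 (SD, n = 3) in Ctrl libraries, 7.00 ± 1.29 in CIA libraries and 11.5 ± 1.86 in CIA+THz libraries. Its log2 difference was -1.28 from Ctrl to CIA (adjusted p = 0.0513 by limma) and 0.71 from CIA to CIA+THz. In CIA+THz against CIA, 3 of the 17 passed, all higher, against 4.54% of all genes in either direction. H2-Q9 was higher by 0.69 there. H2-Q2, which also passed the criterion in that comparison, was listed at 0 in all CIA libraries and was 0.353 ± 0.172 in CIA+THz. Its level in CIA+THz is by itself enough to bring its mean over the minimum of 0.1. The size of its difference from CIA depends on the pseudocount of 0.1, so its place among the 3 is not read as a result. H2-L was higher in CIA+THz than in Ctrl by 0.70, with overlapping groups. In that comparison 1 of the 17 passed with a higher level, against 4.64% of all genes in that direction. The heavy chain genes of this list are near copies of each other, so reads may be split among them.

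Of 16 regulators, 13 were higher in CIA than in Ctrl, 6 of them at an unadjusted p under 0.05, beside 8.84% of all genes in that direction. At the same threshold 2 were lower, and the median was 0.39. Socs1, a feedback inhibitor of interferon receptor signalling, passed the criterion at 1.03 in CIA and 0.90 in CIA+THz against Ctrl. Of all genes, 4.78% and 4.64% passed in the higher direction in these comparisons. Ciita, the class II counterpart of Nlrc5, passed at 0.77 in CIA+THz against Ctrl. In CIA+THz against CIA, 0 of the 16 passed, against 4.54% of all genes.

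Of 20 interferon-inducible genes, 3 passed the criterion in CIA against Ctrl, all higher: Oas1a (1.55), Gbp2 (0.84) and Irgm2 (0.74), beside 4.78% of all genes in that direction. The median of the list was 0.26, and 7 of 20 were lower. In CIA+THz against CIA, Iigp1 passed with a higher level (0.90) and Isg15 with a lower one (-0.89), beside 4.54% of all genes in either direction. In CIA+THz against Ctrl, Oas1a (1.18), Gbp2 (0.80) and Iigp1 (0.72) passed, beside 4.64% of all genes in the higher direction. Of 15 genes on the list of class I receptors, which also holds related receptors such as Lilrb4a, 12 were tested. Of these, 10 were lower in CIA than in Ctrl, with a median of -0.67. The NK cell receptor genes Klra3 (-1.57) and Klrd1 (-0.97) passed, beside 9.05% of all genes in either direction. Klra3 was higher in CIA+THz than in CIA by 0.95, where 4.54% of all genes passed. From Ctrl to CIA all 7 NK cell markers above were lower and from CIA to CIA+THz all 7 were higher, and their part in this was not tested.

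**Figure D4:**
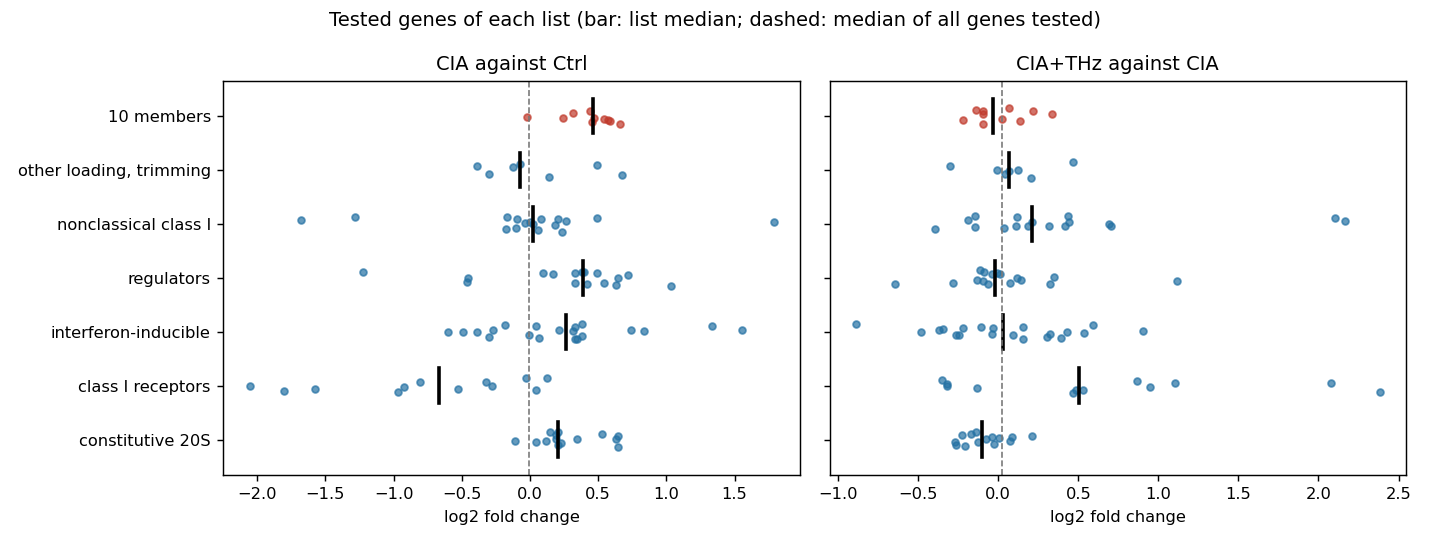
Log2 fold change (horizontal axis) of every tested gene of each list for CIA against Ctrl (left) and CIA+THz against CIA (right), with the median of the list (bar) and of all genes tested (dashed line). The medians of the 10 members were 0.46 and -0.04, and those of the class I receptors were -0.67 and 0.51.

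Among the 5 genes most like the members in pattern, by Pearson's r between their log2 level and the mean standardised level of the 10 members over the 9 libraries, were Serpina3g (r = 0.975), Tgm2 (0.965), Snrpb (0.959) and Pacs2 (0.947), out of 6192 genes with a mean of at least 5. The r is a description over libraries that fall into 3 groups. Serpina3g, a serine protease inhibitor, was 3.37 ± 0.54 (SD, n = 3) in Ctrl libraries, 15.4 ± 3.95 in CIA libraries and 15.4 ± 5.49 in CIA+THz libraries.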

How the data were processed

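The authors deposited FPKM (fragments scaled by transcript length and library total), 1 column per library, from paired-end sequencing of total blood RNA. The submitters' processing notes name bcl2fastq 2.0, HISAT2, StringTie, DESeq2 and the build mm10. The annotation, strand setting and filters are not given in the sources used here. Groups were taken from the labels. Here, FPKM were divided by a median-of-ratios factor per library, and log2(value + 0.1) was tested for the 12382 genes with a mean of at least 0.1 by limma 3.58.1 (trend) in R 4.3.3, pairwise on 6 libraries and by an F-test on 9, with Benjamini-Hochberg adjustment over all genes tested. The scripts were tested on simulated data with the real means and known changes. Members and lists were chosen with earlier results of these data known. Genes of the lists were named where they passed the criterion, at most 4 per list and comparison. A gene that this rule and the likeness of pattern name is not reported here. Alternatives were FPKM as deposited, leukocyte scaling, other pseudocounts and filters, no trend, 1 fit of all libraries, a replicate block and leaving out each library. Counts at an unadjusted p under 0.05 without a fold limit were added after seeing the data. Trac, Trbc2 and H2-Q5 were not analysed here, and H2-T3, H2-M2, Klra4, Klra8 and Klra9 were below the minimum.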

Additional observations from a re-analysis of the deposited data

How the results depend on the processing

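The 3 comparisons rest on 3 libraries a group, and FPKM without counts give no precision for single values. The share of members with an unadjusted p under 0.05 and their directions against Ctrl were kept by a pseudocount of 1, other filters on low values and 1 fit of all libraries, with counts within 1.5 times. After Benjamini-Hochberg adjustment 0 of 10 members were left in either comparison with Ctrl and 2 across the groups. Over all genes the adjustment left 19 of 1120, 0 of 562 and 13 of 972 for CIA against Ctrl, CIA+THz against CIA and CIA+THz against Ctrl. A pseudocount of 1 left 287 of 562, and without Ctrl 3 the 972 became 1483.

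With FPKM as deposited, 1 member (Psmb9) passed the criterion in CIA against Ctrl and 7 in CIA+THz against Ctrl, where the median of all genes moved from 0.04 to 0.33, while 3 had an unadjusted p under 0.05 in CIA+THz against CIA. The signs turned for H2-D1 (0.14), B2m (0.18), Tapbp (0.058), Psmb8 (0.18) and Psmb9 (0.18) in CIA+THz against CIA and for Nlrc5 in CIA against Ctrl (0.0049). All genes past the criterion then numbered 1199 and 1720 in the comparisons of CIA+THz with CIA and with Ctrl. With leukocyte scaling, 5 members had an unadjusted p under 0.05 in CIA against Ctrl.

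Leaving out 1 library gave 0 to 2 members past the criterion in CIA against Ctrl and 1 to 2 in CIA+THz against Ctrl. At an unadjusted p under 0.05 it gave 5 to 7 members in CIA against Ctrl and 0 to 2 in CIA+THz against CIA. The log2 difference of Nlrc5 in CIA against Ctrl then ranged from -0.21 to 0.076. That of B2m ranged from 0.073 to 0.36 in this comparison and from -0.012 to 0.26 in CIA+THz against Ctrl. In CIA+THz against CIA the range was -0.015 to 0.22 for H2-K1, -0.25 to 0.069 for B2m, -0.081 to 0.18 for Tap1, -0.016 to 0.16 for Tap2, -0.21 to 0.0073 for Psmb8, 0.078 to 0.38 for Psmb10 and -0.21 to 0.014 for Psmb9. For the ratios, the log2 difference of CIA against Ctrl ranged from 0.17 to 0.36 (Psmb8/Psmb5), 0.48 to 0.74 (Psmb9/Psmb6) and 0.23 to 0.51 (Psmb10/Psmb7), and the exact permutation p over the 3 groups from 0.0214 to 0.121, 0.0357 to 0.229 and 0.0143 to 0.0964.

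The replicate numbers were taken to mark different mice, and the 9 same-numbered pairs of deviations had correlations of -0.05 to 0.03. With the replicate block, 6 members had an unadjusted p under 0.05 in CIA against Ctrl, and Psmb10/Psmb7 (log2 difference 0.39) had an exact permutation p of 0.0556 in place of 0.0214. The cause of these changes was not tested.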

Other observations

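The balance among members was read as ratios of FPKM within a library, chosen after their values were seen and given with no test. H2-D1/H2-K1 was 5.85 to 7.29 in Ctrl, 6.06 to 7.14 in CIA and 4.99 to 5.82 in CIA+THz. Every CIA+THz library was below every Ctrl and CIA library. The size of this ratio also depends on how reads of the strain's own heavy chain alleles aligned to the reference, which was not tested. Nlrc5/Psmb9 was 0.384 to 0.579 in Ctrl, 0.298 to 0.322 in CIA and 0.383 to 0.498 in CIA+THz, so the CIA libraries were below all others. Tap2/Tap1, the ratio of the transporter subunits, overlapped among all 3 groups, at 0.914 to 1.18 in Ctrl, 0.756 to 0.958 in CIA and 0.772 to 0.968 in CIA+THz.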
